A study of Mus musculus with 12 samples.

Results

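The genes studied here make, load, take up and break down the inhibitory transmitters GABA and glycine: Gad1, Gad2, Slc32a1, Slc6a5, Slc6a9 and Abat. Their probe sets were found by gene symbol in the array's probe table, which held 18194 genes with a probe set of their own. The 6 genes had 14 of 45101 probe sets, 4 for Slc32a1 and 2 for each other gene. Of these 14, 10 were bright enough to be tested (signal over 107 on at least 3 of the 12 arrays) and 4 were not, with no signal above 104. Each probe set was described on its own.

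GABA and glycine are the main inhibitory transmitters of the hindbrain and spinal cord. GABA is made from glutamate by the decarboxylases GAD67 (Gad1) and GAD65 (Gad2), and the vesicular transporter encoded by Slc32a1 loads both GABA and glycine into synaptic vesicles. Glycine neurons take glycine back up through GlyT2 (Slc6a5), GlyT1 (Slc6a9) is found mainly on glia, and GABA transaminase (Abat) degrades GABA. Glutamic acid decarboxylase has been described in some serotonin neurons of the rat medulla.

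Embryonic mice of stage E12.5 carried ePet-EYFP, a transgene that marks serotonin neurons with yellow fluorescent protein (YFP). Their neural tubes were cut at the pontine flexure, and the cells of each domain were sorted by YFP. The labels name R+ and C+ as rostral and caudal serotonin neurons, and R- and C- as rostral and caudal non-serotonin neurons. R+ and C+ cells were YFP-positive, and R- and C- cells were YFP-negative. Each population was measured on 3 arrays, labelled biological replicates, from 200000 cells each. All 4 populations came from transgenic embryos. How many embryos went into a replicate was not given in the sources used here.

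All 8 serotonin neuron markers were higher in both YFP-positive populations, among them Tph2, which encodes the serotonin-synthesising hydroxylase of neurons, at 5578 to 6784 in R+ arrays against 20 to 83 in R- arrays, and at 1869 to 2449 in C+ arrays against 18 to 41 in C- arrays. The YFP-negative cells, which the labels call neurons, also held progenitor and blood RNA. The red blood cell markers summed to 8693 to 15580 in R+ arrays against 45070 to 59141 in R- arrays, and to 4792 to 8626 in C+ arrays against 40427 to 44926 in C- arrays. Summed over 8 progenitor markers, the signal was 19064 to 20745 in R+ arrays against 46529 to 57873 in R- arrays, and 20053 to 25650 in C+ arrays against 48052 to 51929 in C- arrays. Of 6 mesenchyme markers 5 were measured, and their sum was 437 to 537 in R+ arrays against 604 to 982 in R- arrays, and 2691 to 3138 in C+ arrays against 1791 to 3007 in C- arrays. In C+ cells 1 of these, Dcn, was higher (2345 ± 159 against 417 ± 111 in C- cells, SD, n = 3 each) and 3 were lower. Of all genes 4.81% were higher and 6.24% lower in C+ than in C- cells. In bulk samples fewer cells of a type and less RNA per cell cannot be told apart. Below, levels are MAS5 signals, while differences are given on a log2 scale after 10 was added to each signal, with SE, as the population named first minus the other; p-values come from limma and are adjusted over 26061 probe sets.

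The promoters of Gad1, Gad2, Slc32a1 and Slc6a5 are printed here, so that the regulatory sequence stands beside the values: of the 5 genes with an entry, these 4 differed between populations. Each is the 250 bases before an annotated start, plus strand, from RefSeq on GRCm38.p6. Capitals mark matches on either strand to the motifs named after the sequences. Slc6a5 has more than 1 promoter entry, and the first of these is shown. Abat had no entry.
Gad1, chr2:70561879-70562128: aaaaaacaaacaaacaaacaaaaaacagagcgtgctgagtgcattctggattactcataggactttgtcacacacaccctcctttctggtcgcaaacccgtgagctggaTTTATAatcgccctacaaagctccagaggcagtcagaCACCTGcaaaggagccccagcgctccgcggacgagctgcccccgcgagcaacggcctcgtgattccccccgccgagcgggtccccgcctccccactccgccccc
Gad2, chr2:22622077-22622326: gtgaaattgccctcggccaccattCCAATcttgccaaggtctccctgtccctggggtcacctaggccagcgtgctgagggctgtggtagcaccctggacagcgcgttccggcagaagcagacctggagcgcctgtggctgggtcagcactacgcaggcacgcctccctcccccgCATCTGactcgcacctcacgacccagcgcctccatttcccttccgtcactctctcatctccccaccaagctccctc
Slc32a1, chr2:158610508-158610757: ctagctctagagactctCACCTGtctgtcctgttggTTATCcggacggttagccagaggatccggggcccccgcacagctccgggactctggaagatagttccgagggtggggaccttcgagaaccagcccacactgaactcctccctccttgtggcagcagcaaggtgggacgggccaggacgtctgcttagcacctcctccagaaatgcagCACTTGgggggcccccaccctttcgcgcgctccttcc
Slc6a5, chr7:49910049-49910298: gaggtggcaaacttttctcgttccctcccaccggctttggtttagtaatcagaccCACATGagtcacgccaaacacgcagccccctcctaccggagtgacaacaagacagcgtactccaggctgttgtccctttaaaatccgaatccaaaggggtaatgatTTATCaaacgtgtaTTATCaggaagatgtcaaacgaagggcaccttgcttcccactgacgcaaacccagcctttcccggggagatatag
The letters CANNTG, the E-box read by basic helix-loop-helix factors, were found in all 4 windows, as in 66.2% of 32851 promoter windows of this length. Counted from the start site to the leftmost base, they lay at -104 in Gad1, at -76 in Gad2, at -233 and -37 in Slc32a1 and at -195 in Slc6a5. GATAA, the core read by GATA factors, lay at -214 in Slc32a1 and at -89 and -75 in Slc6a5, and 22.6% of windows held it. TATAAA (12.4% of windows) was found at -141 in Gad1 and CCAAT (33.8%) at -226 in Gad2, while TAATTA (4.8%) was in none of the 4. No motif matches overlapped. On the same build Gad1 spans chr2:70561303-70602014, Gad2 chr2:22621015-22693877, Slc32a1 chr2:158607260-158615747 and Slc6a5 chr7:49906984-49963864. All 4 windows lie inside these spans, so the starts used here are not the outermost ends of the genes.

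Gad1 was low in rostral serotonin neurons and, by its brighter probe set, nearly as high in caudal serotonin neurons as in the cells around them. Probe set 1416561_at had signals of 147, 187 and 218 in R+ arrays, against 1398, 2210 and 1611 in R- arrays. The C+ arrays had 1836, 2182 and 2357, against 2270, 2408 and 2441 in C- arrays. The 3 R+ arrays lay below all 9 others, and the C+ and C- arrays overlapped. R+ minus R- was -3.16 ± 0.19 (adjusted p = 2.68e-07). C+ minus C- was -0.17 ± 0.19 (adjusted p = 0.721), with a 95% interval of -0.58 to 0.24.

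Set directly against each other, the serotonin populations differed at this probe set by -3.47 ± 0.19 (adjusted p = 4.17e-07) for R+ minus C+. The YFP-negative cells were not shown to differ, at -0.47 ± 0.19 (adjusted p = 0.343, and 0.0568 with the replicate block) for R- minus C-. Every R- array nevertheless lay below every C- array, at 1398 to 2210 against 2270 to 2441, so a lower level in R- cells was not excluded. The rostral difference minus the caudal one was -3.00 ± 0.27 (adjusted p = 9.73e-05), which tests the difference between the domains itself, and 0.33% of all probe sets were lower and 0.192% higher by that test. Leaving out any array or replicate number gave -3.14 to -2.81. Values of RNA quality moved with the domains, and their part in the results was tested only by the covariate given here. The ratio of 3' to 5' signal of the beta-actin control was 2.64 to 3.6 in R+ arrays, 2.88 to 4.39 in R- arrays, 4.52 to 6.92 in C+ arrays and 4.67 to 7.69 in C- arrays. For Gapdh it was 1.18 to 1.69 in R+ arrays, 1.15 to 2.14 in R- arrays, 1.6 to 4.63 in C+ arrays and 1.54 to 2.5 in C- arrays. With the beta-actin ratio as a covariate, R+ minus C+ at Gad1 was -2.99 ± 0.22 (adjusted p = 2.65e-05 by limma). The rostral difference minus the caudal one was then -2.92 ± 0.21 (adjusted p = 1.08e-05). The ratio differed between the domains but overlapped within each, so this covariate could move that last contrast only a little. The mesenchyme marker sum given above was larger on every caudal array than on any rostral one, and its part in the Gad1 values was not tested.

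The other Gad1 probe set, 1416562_at, was dim. It had signals of 56, 26 and 19 in R+ arrays, against 122, 92 and 153 in R- arrays, and of 113, 74 and 21 in C+ arrays, against 188, 164 and 146 in C- arrays. The R+ arrays lay below all R- arrays, and the C+ arrays below all C- arrays. R+ minus R- was -1.66 ± 0.52 (adjusted p = 0.0742, and 0.0271 with the replicate block), and C+ minus C- was -1.36 ± 0.52 (adjusted p = 0.152). The domains were not shown to differ (-0.31 ± 0.73, adjusted p = 1, 95% interval -1.89 to 1.27). Only 1 C+ array and none of the R+ arrays exceeded 107 here, and signals this low limit how large a log2 difference can become. For C+ minus C- the intervals of the 2 probe sets overlapped, at -2.47 to -0.24 for the dim one and -0.58 to 0.24 for the brighter one. Which transcripts each detects was not tested.

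**Figure D1:**
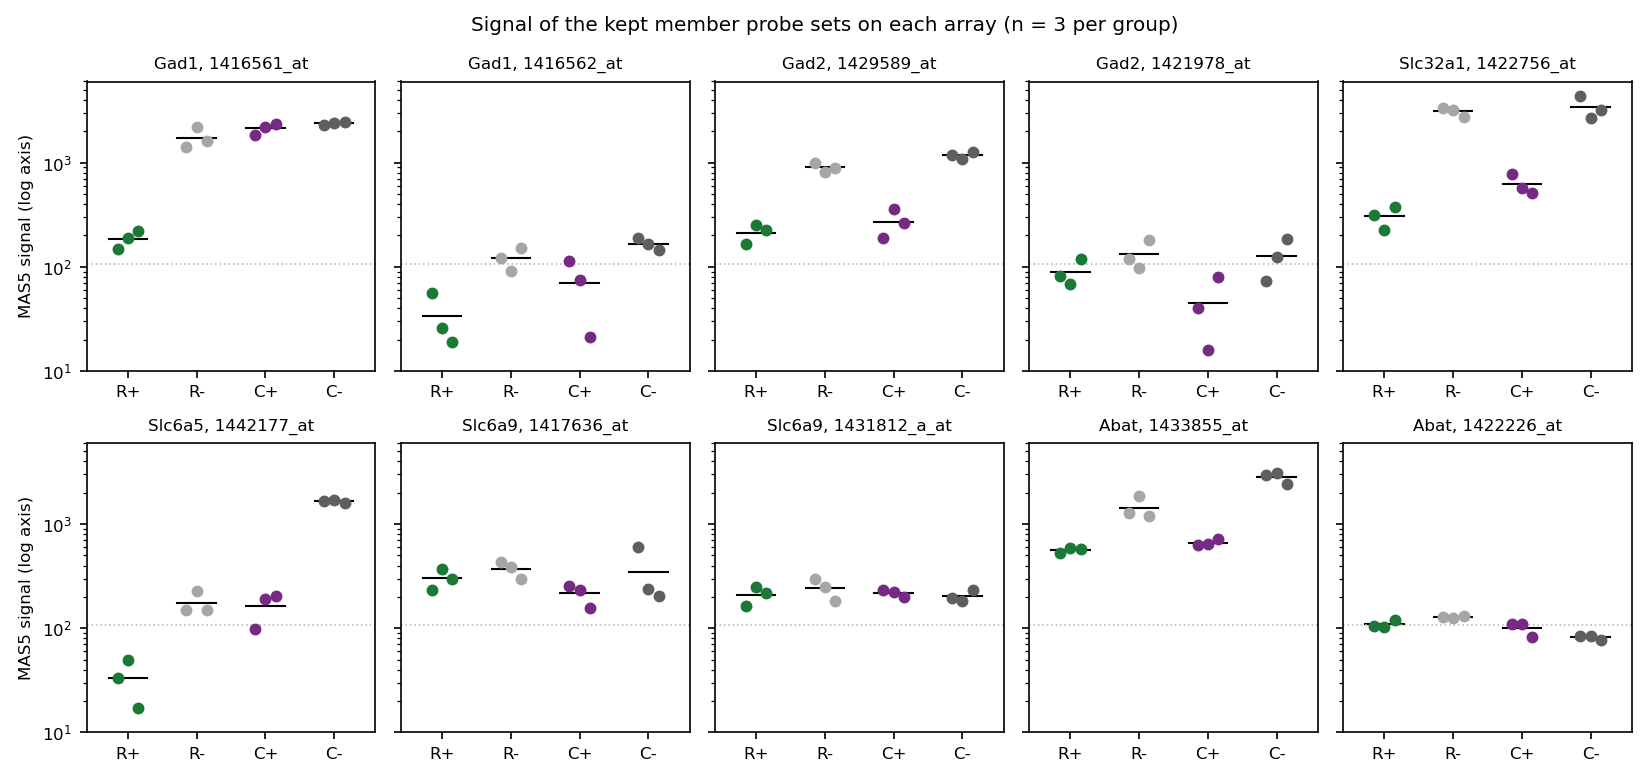
MAS5 signal (log axis) of the 10 tested probe sets, 1 panel each, on the 3 arrays of R+, R-, C+ and C-; short lines are group means and the dotted line is the filter at 107. For Gad1 1416561_at the R+ arrays stand alone at 147 to 218, whereas for Slc32a1 1422756_at and Gad2 1429589_at both YFP-positive populations lie below both YFP-negative ones.

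Gad2, the second GABA-synthesising enzyme, was low in serotonin neurons of both domains. Probe set 1429589_at had signals of 164, 251 and 224 in R+ arrays, against 989, 814 and 893 in R- arrays, and of 187, 357 and 263 in C+ arrays, against 1172, 1071 and 1274 in C- arrays. No YFP-positive array reached a YFP-negative one. R+ minus R- was -2.04 ± 0.23 (adjusted p = 6.39e-05) and C+ minus C- was -2.13 ± 0.23 (adjusted p = 3.55e-05). The domains were not shown to differ (0.083 ± 0.32, 95% interval -0.61 to 0.78), and R+ and C+ arrays overlapped, at -0.30 ± 0.23 (adjusted p = 0.531). The dim probe set 1421978_at ranged from 16 to 186. It gave -0.51 ± 0.50 (adjusted p = 0.715) for R+ minus R- and -1.40 ± 0.50 (adjusted p = 0.12, and 0.0255 with the replicate block) for C+ minus C-.

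Slc32a1, the vesicular transporter shared by GABA and glycine neurons, was also low in both, and lower in rostral than in caudal serotonin neurons. Probe set 1422756_at had signals of 315, 226 and 371 in R+ arrays, against 3353, 3209 and 2729 in R- arrays, and of 777, 567 and 515 in C+ arrays, against 4308, 2683 and 3192 in C- arrays. Every YFP-positive array lay below every YFP-negative one, and every R+ array below every C+ array. R+ minus R- was -3.33 ± 0.22 (adjusted p = 6.11e-07) and C+ minus C- was -2.43 ± 0.22 (adjusted p = 8.4e-06). After adjustment the domains were not shown to differ (-0.90 ± 0.31, adjusted p = 0.533, and 0.0892 with the replicate block). The interval before adjustment was -1.58 to -0.22, so a difference between the domains was not excluded. R+ minus C+ was -1.01 ± 0.22 (adjusted p = 0.0238, and 0.0013 with the replicate block). A replicate named with no population was left out of all 4 populations at once. The call was lost, by the adjusted p in parentheses, without R+ replicate 1 (0.0593), R+ replicate 2 (0.0789), C+ replicate 2 (0.0727), replicate 2 (0.225) or replicate 3 (0.185). It was also lost with arrays scaled to 1 median (0.107), without the trend (0.0609), with the beta-actin covariate (0.119) and in a fit of only the groups compared (0.0855). The other 3 Slc32a1 probe sets stayed between 4 and 89 on all arrays and were not tested.

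The differences of the brighter Gad1 probe set were set directly against those of the brightest probe set of each other gene and of its own dim one, 12 comparisons in all (log2 scale, SE, n = 3 arrays per group). Its C+ minus C- difference lay 1.96 ± 0.21 above that of Gad2, 2.26 ± 0.36 above that of Slc32a1, 1.90 ± 0.14 above that of Abat and 3.16 ± 0.22 above that of Slc6a5. Each of these 4 had an exact two-sided permutation p of 0.1, the smallest that 3 arrays against 3 allow, and 0.133 after adjustment over the 12, so they could not pass at 0.05. From that of Slc6a9 it lay 0.36 ± 0.59 (exact permutation p = 0.7) and from that of the dim Gad1 probe set 1.19 ± 0.70 (exact permutation p = 0.2). In the rostral domain the Gad1 difference minus the other was -1.12 ± 0.29 for Gad2, -1.01 ± 0.44 for Slc6a5, -2.87 ± 0.29 for Slc6a9, -1.86 ± 0.15 for Abat and -1.50 ± 0.63 for the dim Gad1 probe set, each again at an exact permutation p of 0.1. For Slc32a1 it was 0.17 ± 0.31 (exact permutation p = 0.6).

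**Figure D2:**
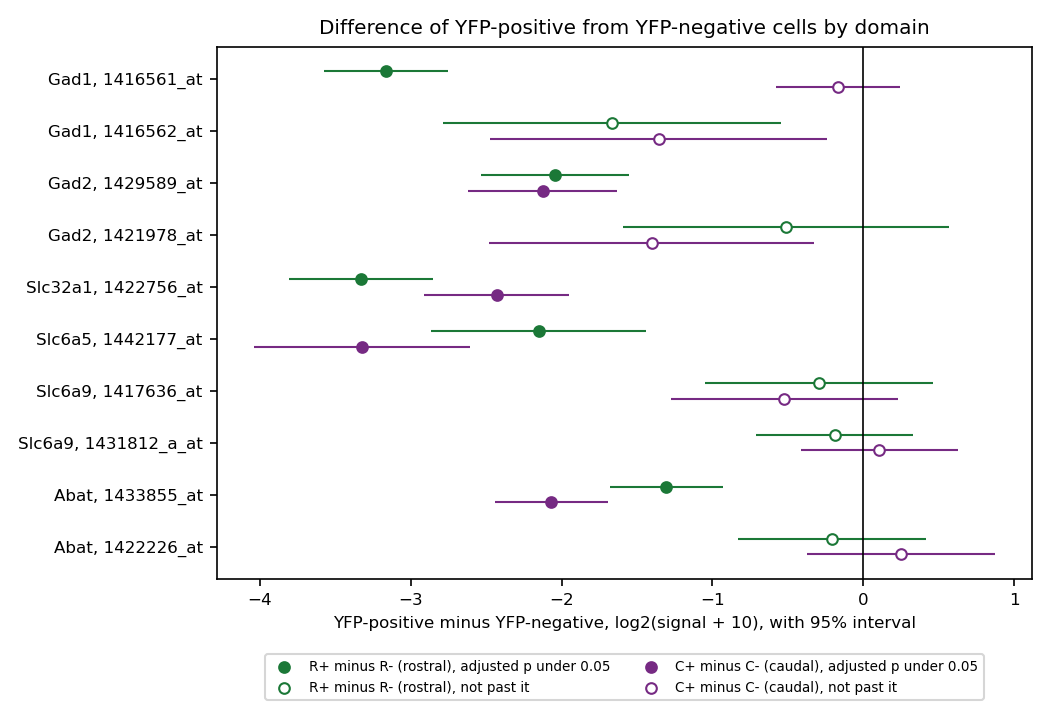
Difference of YFP-positive from YFP-negative cells on the log2(signal + 10) scale, with 95% interval, for the 10 tested probe sets, R+ minus R- above C+ minus C-; filled points had an adjusted p under 0.05. The points of Gad1 1416561_at lie far apart, at -3.16 and -0.17, and those of Gad2 1429589_at side by side, at -2.04 and -2.13.

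As a share of the level in YFP-negative cells, the brighter Gad1 probe set stood at 10.6% in R+ cells and 89.5% in C+ cells. For Slc32a1 the shares were 9.82% and 18.3%, and for Gad2 23.7% and 22.9%. Markers of other cells were read on the same scale. Slc17a6, the vesicular glutamate transporter of many excitatory neurons, stood at 8.55% in R+ and 8.37% in C+ cells. Of the 4 measured red blood cell markers, the globin genes Hbb-bh1 and Hbb-y stood lowest and highest rostrally, Hbb-bh1 at 8.48% and 8.34% and Hbb-y at 33.0% and 22.3%. The summed markers of red blood cells stood at 23.1% and 17.1%, those of dividing cells at 24.4% and 30.9%, and general neuron markers at 109% and 90.6%. Bright genes weigh most in such sums, and single general neuron markers differed: Nefl stood at 39.6% and 42.8%, and Snap25 at 150% and 139%. Progenitor markers stood at 38.7% and 45.7%, with single genes at 17.6% to 53.4% rostrally and 11.1% to 67.5% caudally. Mesenchyme markers stood at 60.4% and 125%, endothelial markers at 88.4% and 45.7%, and macrophage markers at 174% and 78.1%. The macrophage markers went apart: Lyz2 stood at 720% and 316%, Csf1r at 91.0% and 50.2%, and Cx3cr1 at 79.6% and 77.1%. Lyz2 had a signal of 1577 in R+ replicate 1, against 414 and 333 in replicates 2 and 3. The part of carried-over cells and of unspecific hybridization in the low shares was not tested.

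**Figure D3:**
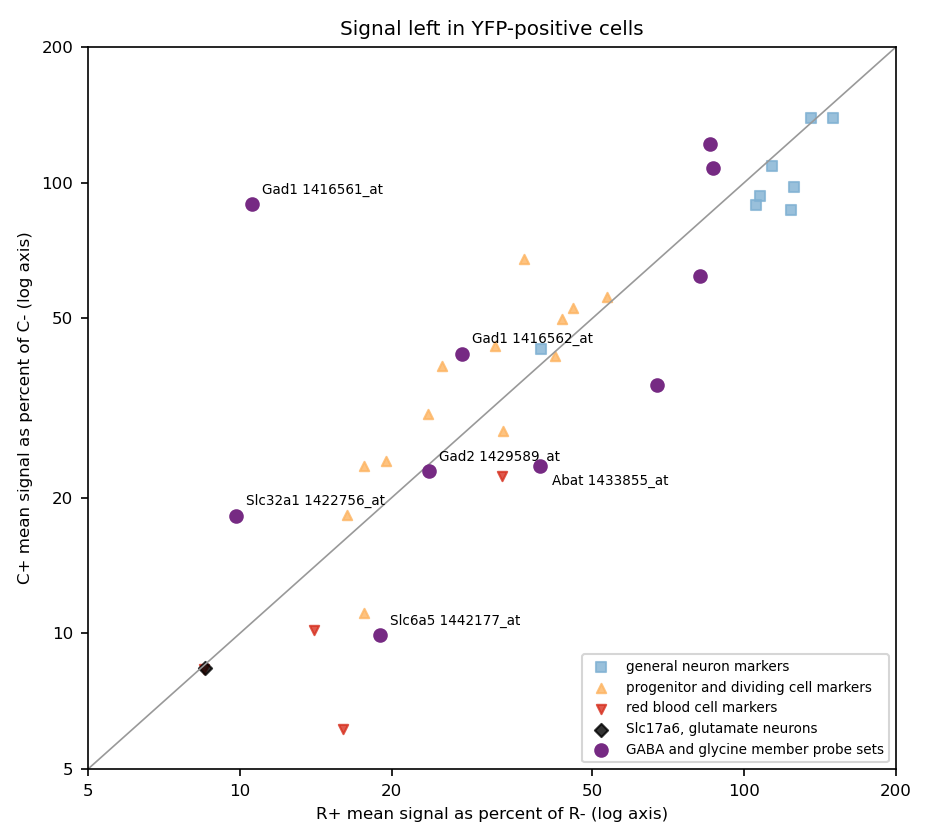
Mean signal in C+ cells as percent of C- against mean signal in R+ cells as percent of R- (log axes; the line marks equal shares), for the tested probe sets and for markers of neurons, progenitors, dividing cells and red blood cells. Gad1 1416561_at lies far above the line, at 10.6% and 89.5%, and Slc17a6 close to it, at 8.55% and 8.37%.

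Slc6a5, the glycine transporter of glycine neurons, was highest in caudal YFP-negative cells. Probe set 1442177_at had signals of 33, 50 and 17 in R+ arrays, against 151, 228 and 149 in R- arrays, and of 98, 191 and 206 in C+ arrays, against 1676, 1710 and 1610 in C- arrays. The C- arrays stood apart from the other 9, and R- and C+ arrays overlapped. R- minus C- was -3.20 ± 0.33 (adjusted p = 0.000114). R+ minus R- was -2.15 ± 0.33 (adjusted p = 0.000884) and C+ minus C- was -3.32 ± 0.33 (adjusted p = 1.78e-05). After adjustment the domains were not shown to differ (1.17 ± 0.47, adjusted p = 0.747, and 0.236 with the replicate block). The interval before adjustment was 0.16 to 2.18, so a difference between the domains was not excluded. R+ minus C+ was -2.02 ± 0.33 (adjusted p = 0.00355, and 0.00038 with the replicate block). That call was lost without replicate 2 (0.0743) or replicate 3 (0.253). It was also lost with the beta-actin covariate (0.179) and in a fit of only the groups compared (0.0847). The other Slc6a5 probe set stayed between 39 and 104 and was not tested.

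For Slc6a9, the second glycine transporter, neither probe set passed in any comparison. Probe set 1417636_at had signals of 235, 373 and 300 in R+ arrays, against 428, 385 and 300 in R- arrays, and of 257, 232 and 158 in C+ arrays, against 599, 240 and 202 in C- arrays. The populations overlapped, and the first C- replicate lay above the other 11 arrays. The 95% intervals were -1.05 to 0.46 for R+ minus R- and -1.28 to 0.23 for C+ minus C-. Probe set 1431812_a_at ranged from 162 to 297, with intervals of -0.71 to 0.33 and -0.41 to 0.63. Slc6a9 lies at chr4:117835258-117869305.

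Abat, the enzyme that degrades GABA, was lower in serotonin neurons of both domains by its brighter probe set, 1433855_at. Its signals were 532, 591 and 572 in R+ arrays, against 1264, 1852 and 1195 in R- arrays, and 628, 645 and 722 in C+ arrays, against 2939, 3091 and 2450 in C- arrays. No YFP-positive array reached a YFP-negative one, and the R- arrays lay below the C- arrays. R+ minus R- was -1.30 ± 0.17 (adjusted p = 0.000287) and C+ minus C- was -2.07 ± 0.17 (adjusted p = 3.91e-06). After adjustment the domains were not shown to differ (0.76 ± 0.25, adjusted p = 0.427, and 0.0979 with the replicate block). The interval before adjustment was 0.23 to 1.29, so a difference between the domains was not excluded. R- minus C- was -0.99 ± 0.17 (adjusted p = 0.009, and 0.000917 with the replicate block). That call was lost without C- replicate 2 (0.052), R- replicate 3 (0.0685), replicate 1 (0.0512), replicate 2 (0.0784) or replicate 3 (0.322). It was also lost with arrays scaled to 1 median (0.0842) and with the beta-actin covariate (0.125). R+ minus C+ was -0.23 ± 0.17 (adjusted p = 0.525). The dim probe set 1422226_at ranged from 77 to 132, with -0.21 ± 0.29 (adjusted p = 0.825) for R+ minus R- and 0.25 ± 0.29 (adjusted p = 0.726) for C+ minus C-. Abat spans chr16:8513429-8621568.

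Of the 10 tested probe sets, 5 were lower and 0 higher in R+ than in R- cells, where 4.88% of all 26061 probe sets were lower and 2.79% higher. With the replicate block 6 were lower, where 8.16% of all were. In C+ against C- cells 4 were lower and 0 higher, where 4.64% of all were lower and 3.56% higher, and with the block 5 were lower, where 8.83% of all were. In R+ against C+ cells 3 were lower and 0 higher (2.39% and 1.38% of all). In R- against C- cells 2 were lower and 0 higher (0.959% and 0.533% of all), and in the test between the domains 1 was lower and 0 higher. The median difference of the 10 was -1.48 for R+ minus R- and -1.38 for C+ minus C-, beside 0.016 and -0.019 over all probe sets. The members were chosen with earlier results of these data known, so these counts and medians describe them and are not a test. These 10 are not the whole set, because a probe set that is bright in any population passes the brightness filter more easily; 6 of them exceeded 107 on all 12 arrays and the other 4 on 5 to 8.

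To describe the patterns further, the log2 values of each gene's brightest probe set were correlated with those of every other named gene over the 12 arrays. The arrays form 4 populations, so a high Pearson r mainly describes their means. The 5 genes most like Gad1 were Arhgap31 (r = 0.98), Epha3 (0.98), Lratd1 (0.973), Vav3 (0.971) and Lpcat2 (0.948). Epha3, an ephrin receptor, averaged 371 ± 35.1 in R+ cells against 1198 ± 66.7 in R- cells, and 1417 ± 241 in C+ cells against 1837 ± 155 in C- cells (SD, n = 3 each). Vav3 averaged 210.3 ± 5.86 in R+ cells against 560.3 ± 122 in R- cells, and 679 ± 50.2 in C+ cells against 897 ± 41.6 in C- cells (SD, n = 3 each). In both genes R+ was the lowest population, as for Gad1.

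The genes most like Gad2 were Apcdd1 (r = 0.987), Ripor2 (0.983), Pax6 (0.982), Tfap2a (0.982) and Slc17a6 (0.982). Those most like Slc32a1 were Igfbpl1 (r = 0.976), Tanc1 (0.975), Prag1 (0.972), Ebf3 (0.97) and Notch1 (0.97). Pax6 and Notch1 are among the progenitor markers used here, whereas Slc17a6 is the glutamate neuron marker. The other genes named for Gad2 and Slc32a1 were on none of the marker lists. The nearest to Slc6a5 were Sox6 (r = 0.98), Npy (0.973), Lamp5 (0.971), Rbms3 (0.971) and Kit (0.969). Npy, which encodes neuropeptide Y, averaged 188 ± 19.0 in R+ cells against 1174 ± 60.5 in R- cells, and 821 ± 32.5 in C+ cells against 8030 ± 1906 in C- cells (SD, n = 3 each). The nearest to Abat were Adgrl2 (r = 0.985), AW047730 (0.984), C130071C03Rik (0.979), Neurod6 (0.978) and Masp1 (0.978). For Slc6a9 the values were lower, from Lrrc57 (r = 0.884) to Limch1 (0.879), Nfkbil1 (0.832), Parp1 (0.83) and Aasdhppt (0.823).

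The wider pathway was read gene by gene, each by its brightest tested probe set. Of 6 listed genes of GABA breakdown and plasma membrane transport 3 were measured, and by limma 0 passed in either direction in either domain, with or without the replicate block. Without the block 6.83% of all genes were lower and 3.64% higher in R+ cells, and 6.24% and 4.81% in C+ cells. At such shares a count of 0 among so few genes says little about the pathway. Aldh5a1, which acts after Abat, averaged 861 ± 30.8 in R+ cells against 614 ± 155 in R- cells, and 1072 ± 309.7 in C+ cells against 714 ± 164 in C- cells (SD, n = 3 each; adjusted p = 0.279 and 0.198). The GABA transporter gene Slc6a11 was dim, at 72.0 ± 50.2 in R+ cells against 106 ± 65.4 in R- cells, and 120.3 ± 21.5 in C+ cells against 148 ± 41.0 in C- cells (SD, n = 3 each). Pdxk and Pdxp, 2 of 3 listed genes for the vitamin B6 cofactor of the decarboxylases, did not pass in either domain.

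Of 8 measured genes of glutamate and glutamine supply, 1 was lower in each domain and 0 higher, where 6.83% of all genes were lower in R+ and 6.24% in C+ cells; with the replicate block 2 were lower in each, where 10.9% of all genes were lower in R+ and 11.1% in C+ cells. Slc1a3, a glial glutamate transporter, gave -1.53 ± 0.21 (adjusted p = 0.000385) for R+ minus R- and -0.54 ± 0.21 (adjusted p = 0.167, and 0.0408 with the replicate block) for C+ minus C-. Slc1a2, another, gave -0.98 ± 0.29 (adjusted p = 0.0573, and 0.00136 with the replicate block) for R+ minus R- and -2.21 ± 0.29 (adjusted p = 0.000205) for C+ minus C-. Of 9 measured genes of glycine and serine metabolism, 1 was lower in R+ cells (4 with the block) and 2 in C+ cells. Phgdh, the first enzyme of serine synthesis, gave -1.97 ± 0.31 (adjusted p = 0.000975) in R+ and -1.61 ± 0.31 (adjusted p = 0.00415) in C+ cells. Psat1, the next enzyme, gave -0.49 ± 0.23 (adjusted p = 0.306, and 0.0108 with the replicate block) in R+ and -1.56 ± 0.23 (adjusted p = 0.000641) in C+ cells. Gldc, the glycine decarboxylase, did not pass, at -0.53 ± 0.39 (adjusted p = 0.587) in R+ and 0.45 ± 0.39 (adjusted p = 0.614) in C+ cells.

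Of 4 measured genes of the inhibitory synapse and of chloride transport, 1 was higher in each domain, where 3.64% of all genes were higher in R+ and 4.81% in C+ cells. This was Slc12a5, the neuronal chloride exporter KCC2. It averaged 2791 ± 586 in R+ cells against 1676 ± 212 in R- cells (SD, n = 3 each), a difference by limma of 0.72 ± 0.20 (adjusted p = 0.0389). In C+ cells it averaged 3276 ± 735 against 1649.7 ± 251 in C- cells (SD, n = 3 each), a difference by limma of 0.97 ± 0.20 (adjusted p = 0.00586). Gphn, which encodes the scaffold protein gephyrin, did not pass, at 0.052 ± 0.15 and 0.11 ± 0.15. With the replicate block 1 of the 4 was lower in R+ cells, where 10.9% of all genes were lower. It was Slc12a2, at -0.43 ± 0.20 (adjusted p = 0.271 by limma, and 0.029 with the block) for R+ minus R-. For C+ minus C- Slc12a2 gave -0.093 ± 0.20 (adjusted p = 0.868).

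Of 18 listed transcription factors of inhibitory neurons 13 were measured, and 8 of these were lower and 2 higher in R+ against R- cells, where 6.83% of all genes were lower and 3.64% higher. As many were lower and higher in C+ against C- cells, where 6.24% of all genes were lower and 4.81% higher, and the replicate block left these counts as they were. The higher ones, Gata2 and Gata3, act in GABA neurons and in serotonin neurons alike and are also among the 8 serotonin neuron markers. Ptf1a, which selects the inhibitory fate in the dorsal hindbrain, gave -2.50 ± 0.45 (adjusted p = 0.00292) for R+ minus R- and -2.52 ± 0.45 (adjusted p = 0.00258) for C+ minus C-. Lhx1, a factor of many inhibitory neurons, averaged 386 ± 39.6 in R+ cells against 3116 ± 1029.6 in R- cells, and 416 ± 79.0 in C+ cells against 3278 ± 369 in C- cells (SD, n = 3 each). The 8 factors lower in C+ cells (Ptf1a, Lhx1, Lhx5, Pax8, Gbx1, Tal1, Sox14 and Skor1) stood at 6.06% to 22.1% of their C- level. The other 5 measured factors stood at 37.6% (Dlx2), 99.0% (Dmbx1), 197% (Tal2), 1055% (Gata2) and 1534% (Gata3). Tal2, a factor of midbrain GABA neurons, was lower in R+ cells (137 ± 99.1 against 1093 ± 204 in R- cells) and dim caudally (58.3 ± 29.6 in C+ against 29.7 ± 22.1 in C- cells; SD, n = 3 each). The domains differed there by -3.92 ± 0.70 (adjusted p = 0.0227).

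**Figure D4:**
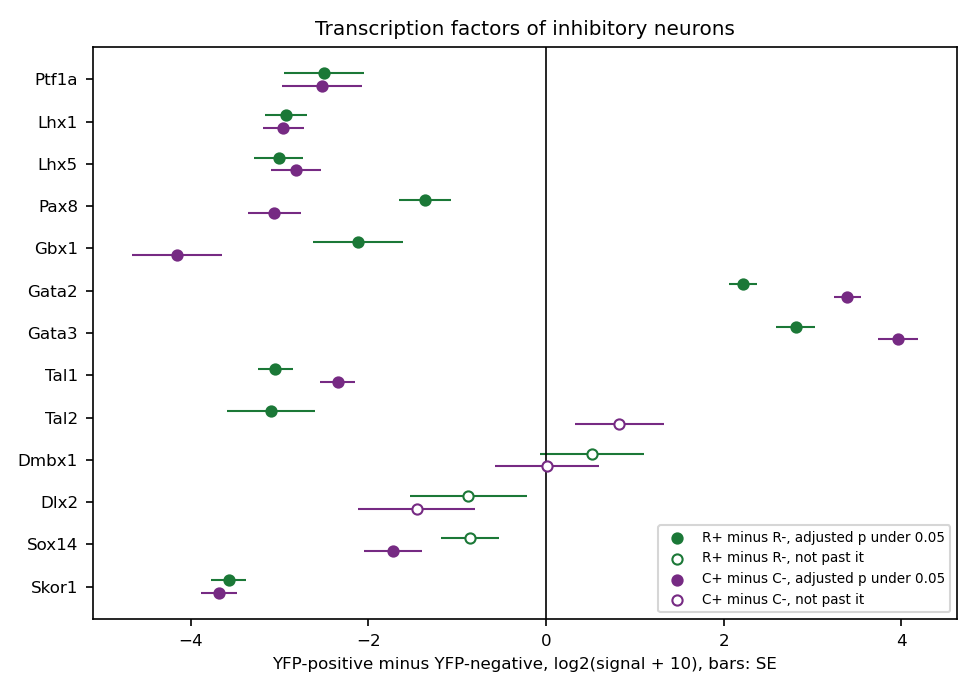
Difference of YFP-positive from YFP-negative cells on the log2(signal + 10) scale, bars SE, for 13 transcription factors of inhibitory neurons, R+ minus R- above C+ minus C-; filled points had an adjusted p under 0.05. Lhx1 lies at -2.93 and -2.96, and Gata2 and Gata3 are the filled points to the right of 0.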

How the data were processed

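RNA of 4 sorted populations was measured on 12 Affymetrix Mouse 430 2.0 arrays. The authors deposited linear signal intensity in whole numbers, made with MAS5 per the submitters' processing notes. Its version and settings were not given in the sources used. The mean of each array's middle values, with 2% trimmed at either end, was 500, so the arrays shared 1 scale; their medians ranged from 93 to 121. After 64 control probe sets were removed, 26061 that exceeded 107 (the median over the whole table) on 3 or more arrays entered a linear model (limma 3.58.1, R 4.3.3). Values were log2(signal + 10), which understates changes of dim genes. A mean per group was fitted with eBayes and a trend, and two-sided p-values were adjusted by Benjamini and Hochberg's method within each of 5 contrasts at 0.05. The fifth contrast was the rostral difference minus the caudal one. Contrasts share arrays and are not independent.

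All member probe sets, genes of the pathway lists and the 5 genes most correlated with each member could be named; which list genes are quoted was chosen after their values were seen. The members and lists were chosen with earlier results of these data known. Arrays with the same replicate number deviated from their group means together (correlation 0.169 to 0.597 in 18 pairs, against -0.468 to 0.318 in 36 others), so the numbers were taken as pairs in a fit with the replicate block. Deviations from a mean cancel within each group, so these overlapping ranges are not independent of each other. Separate litters are not stated, so a p-value reflects only how much these samples spread. Precision is limited by the number of arrays.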

Additional observations from a re-analysis of the deposited data

Results flagged for a closer look

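The difference of Gad1 (probe set 1416561_at) between YFP-positive and YFP-negative cells was not the same in the rostral and caudal domains. The test of that difference by limma gave -3.00 on the log2 scale (adjusted p = 9.73e-05), and over 25 alternatives it ranged from -3.14 to -2.76 (adjusted p = 1.26e-06 to 0.0472). The dim Gad1 probe set 1416562_at gave -0.31 ± 0.73 (adjusted p = 1).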

How the results depend on the processing

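Of 50 single differences of member probe sets 15 passed, and 0 of these changed sign under any alternative run. The calls of 12 held under every alternative, all those of Gad1 1416561_at among them. The other 3, named with their values in the text above, were Slc32a1 and Slc6a5 in R+ against C+ and Abat in R- against C-; the cause was not tested.

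With the replicate block, which pairs arrays by number, the count over all probe sets was 3740 in R+ against R- (1999 without it), 4279 in C+ against C- (2136), 4327 in R+ against C+ (984), 1770 in R- against C- (389) and 419 in the difference between the domains (136). Among member probe sets it added Gad1 1416562_at in R+ against R- and Gad2 1421978_at in C+ against C- and changed no other call. The beta-actin covariate gave 227 in R+ against C+ and 191 in R- against C-. In R+ against C+ scaling to 1 median gave 537, the fit without trend 639 and the fit of only the groups compared 523; without trend the difference between the domains gave 81. Scaling to 1 median left 958 higher and 883 lower in C+ against C-, where the fit had 928 and 1208, and 127 and 137 in R- against C-, where it had 139 and 250. Leaving out arrays gave 651 to 2229 in R+ against R-, 670 to 2491 in C+ against C-, 130 to 2624 in R+ against C+, 75 to 472 in R- against C- and 13 to 203 in the difference between the domains. Single arrays that moved a count by over 1.5 times were R- replicate 3 in R+ against R-; R+ replicate 1, C+ replicate 1, C+ replicate 2, R+ replicate 3 and C+ replicate 3 in R+ against C+; R- replicate 1, C- replicate 1, C- replicate 2, R- replicate 3 and C- replicate 3 in R- against C-; R+ replicate 2, R- replicate 2, C+ replicate 2, R+ replicate 3, R- replicate 3 and C- replicate 3 in the difference between the domains.

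Member probe sets in R+ against C+ numbered 3, and 1 with the beta-actin covariate or only the groups compared. In R- against C- they numbered 2, and 1 with the beta-actin covariate or median scaling. Leaving out arrays gave 5 to 6 in R+ against R-, 4 in C+ against C-, 1 to 3 in R+ against C+, 1 to 2 in R- against C- and 1 in the difference between the domains. A fit of only the groups compared was not run for that last contrast.

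Differences that changed sign had not passed. With the beta-actin covariate these were Abat 1422226_at in R+ against C+ (-0.0087), Gad2 1429589_at in R+ against C+ (0.031), Slc6a9 1417636_at in R- against C- (-0.12) and Slc6a9 1431812_a_at in R+ against C+ (0.11). With median scaling it was Gad2 1429589_at in the difference between the domains (-0.0099). Leaving out arrays gave ranges across 0 for Abat 1422226_at in R+ against C+ (-0.056 to 0.24), Gad1 1416562_at in the difference between the domains (-0.88 to 0.11), Gad2 1421978_at in R- against C- (-0.23 to 0.39), Gad2 1429589_at in the difference between the domains (-0.15 to 0.30), Slc32a1 1422756_at in R- against C- (-0.29 to 0.076), Slc6a9 1417636_at in R- against C- (-0.049 to 0.71), Slc6a9 1417636_at in the difference between the domains (-0.24 to 0.52), Slc6a9 1431812_a_at in R+ against C+ (-0.20 to 0.14), Slc6a9 1431812_a_at in R+ against R- (-0.42 to 0.13) and Slc6a9 1431812_a_at in the difference between the domains (-0.68 to 0.11). Signals near the filter limit what the dim probe sets can show.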
